A study of Homo sapiens with 6 samples.

Results

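Antisense long non-coding RNAs are transcripts made from the strand opposite a named gene, and the platform lists 478 of them among its 14812 genes. They were taken as the genes whose platform symbol ends in -AS and a digit, without VPS9D1-AS1, the RNA that one of the siRNAs targets. LS180, a long-established cell line from a human colorectal adenocarcinoma, was profiled on Affymetrix arrays after siRNA transfection. The siRNAs targeted CTNNB1 (the beta-catenin gene), the transcription factor gene MYC, or the non-coding RNA MYU, whose platform symbol is VPS9D1-AS1. There are 6 arrays in 3 pairs, each a knockdown with the control siRNA array its title refers to. For the CTNNB1 array the treatment tag says CTNNB2, against CTNNB1 in the title and in the source name, and the labels give neither the time after transfection nor the siRNA sequences. No probe set is listed with CTNNB1 itself.

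The authors had centred the values within each pair, so that the knockdown and the control array of a probe set mirror each other around 0. What remains is a log2 difference, knockdown minus control (base 2 is an assumption, as no label states it). A difference of 1 is 2-fold and one of 0.58 is 1.5-fold. There are no replicate arrays, hence no error and no test for any difference: "higher" and "lower" refer to these arrays only, whose number limits the precision. Levels are gone with the centring, so an RNA that stayed the same and one below detection cannot be told apart when the difference is near 0, and the epithelial identity of the cells could not be read from marker levels.

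Antisense RNAs can act on the gene they face or elsewhere. Known mechanisms include recruitment of chromatin enzymes to the locus, interference between converging polymerases, and pairing with the sense messenger RNA that alters its stability or splicing. Many start next to the start of the sense gene and point away from it, sharing its promoter region, while others begin inside the sense gene or behind its end. Some are also hosts of small nucleolar RNAs, which are cut from their introns. The labels do not say whether the probe sets read only the named strand, so for overlapping genes a signal from the other strand cannot be told apart.

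Most antisense RNAs hardly differed between the arrays of a pair. In the CTNNB1 pair their differences had a standard deviation of 0.21 across the 478 RNAs, against 0.55 across 11911 protein-coding genes. It was 0.16 with MYC siRNA, against 0.30, and 0.11 with MYU siRNA, against 0.21. Their medians were 0.01 (CTNNB1 siRNA), 0 (MYC siRNA) and 0 (MYU siRNA), beside medians of 0 over all genes. Long intergenic RNAs, non-coding transcripts with a LINC symbol that lie between genes, had standard deviations of 0.19, 0.13 and 0.11 across 457 of them. In the CTNNB1 pair most of them spread less than the antisense RNAs, and their highest value was 2.22. Their 5th and 95th percentiles there were -0.15 and 0.19, against -0.33 and 0.25 for the antisense RNAs. As a yardstick of noise served 85 genes of olfactory and taste receptor, keratin-associated protein and beta-defensin families, taken as little used in these cells. Since levels are gone, this could not be checked, and some of them may be expressed. Of the 478 antisense RNAs, the number within the range of these families was 440 with CTNNB1, 458 with MYC and 467 with MYU siRNA, beside 10908, 12229 and 13196 of all 14812 genes. Outside it, the CTNNB1 pair had 37 antisense RNAs below and 1 above, where the upper bound of 0.65 was set by a single yardstick gene and all genes had 3081 below and 823 above. The MYC pair had 7 below and 13 above, beside 1412 and 1171 of all genes, and the MYU pair 7 below and 4 above, beside 1047 and 569.

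**Figure D1:**
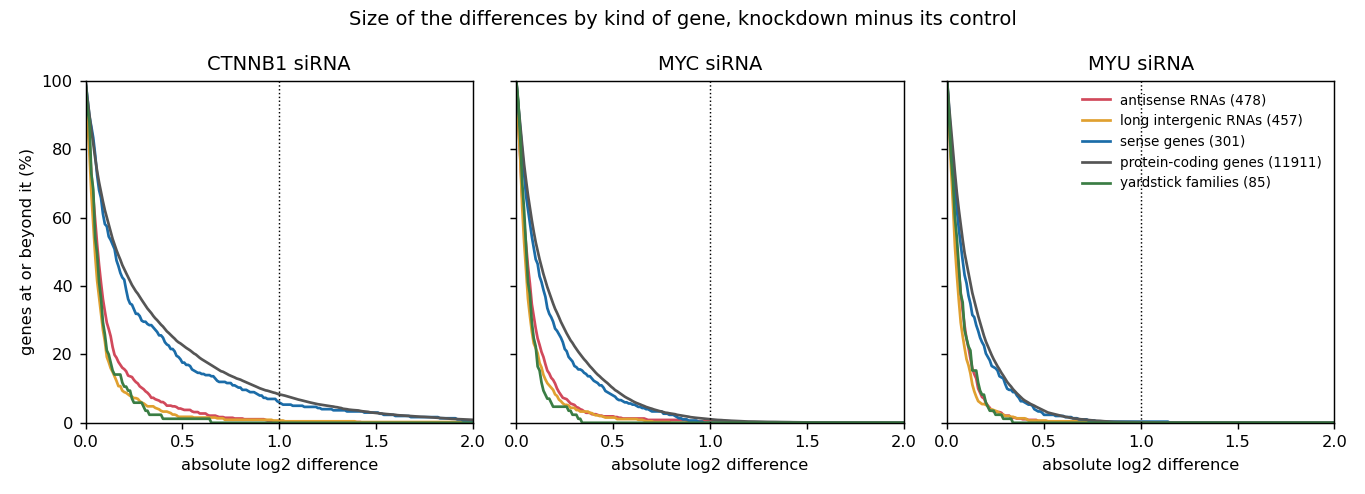
The share of genes (vertical axis, percent) whose absolute log2 difference, knockdown minus its control, reaches the size on the horizontal axis, for 5 kinds of gene in the 3 pairs; the dotted line marks 2-fold. The curves of the antisense RNAs run near those of the long intergenic RNAs and the yardstick families, and below those of the sense genes and the protein-coding genes.

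With CTNNB1 siRNA, 2 of 478 antisense RNAs (0.418%) were at least 2-fold apart, both lower, against 6.94% of all genes in either direction, 4.14% lower and 2.8% higher. At 1.5-fold 12 were lower and 3 higher, against 9.8% and 6.44% of all genes. EPB41L4A-AS1, a host of a small nucleolar RNA, stood at -0.71 on the knockdown array and 0.71 on its control array, a difference of -1.42 or 2.68-fold. PRRT3-AS1 stood at -0.69 and 0.69, a difference of -1.37 or 2.59-fold. Neither sense gene followed, with EPB41L4A, a gene of the protein 4.1 family, at -0.03 and PRRT3 at 0.06.

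The next lowest were GABPB1-AS1 (-0.94), opposite a subunit gene of the transcription factor GABP, PITPNA-AS1 (-0.94), opposite a phosphatidylinositol transfer protein gene, and MNX1-AS1 (-0.93), beside the homeobox gene MNX1, which had a value of -0.18. TMPO-AS1 followed at -0.76, beside the gene of a nuclear lamina protein. FAM222A-AS1 had a value of -0.72, ASB16-AS1 of -0.68, THAP9-AS1 of -0.67, FOXD2-AS1 of -0.63, ZNF674-AS1 of -0.62 and NFYC-AS1, named after a subunit gene of the factor NF-Y, of -0.59. Of these 12 lower RNAs, 5 start within 2000 bases of the start of the sense gene on the other strand. The 3 higher RNAs were BCAR3-AS1 (0.81), opposite a signalling adaptor gene, PAX8-AS1 (0.63), opposite a transcription factor gene of thyroid and kidney, and MAP3K14-AS1 (0.59), opposite the kinase gene of the non-canonical NF-kappaB pathway. Below them came TPT1-AS1 (0.56), FAM83A-AS1 (0.50), HMGN3-AS1 (0.47), SSTR5-AS1 (0.45) and LPP-AS2 (0.41).

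**Figure D2:**
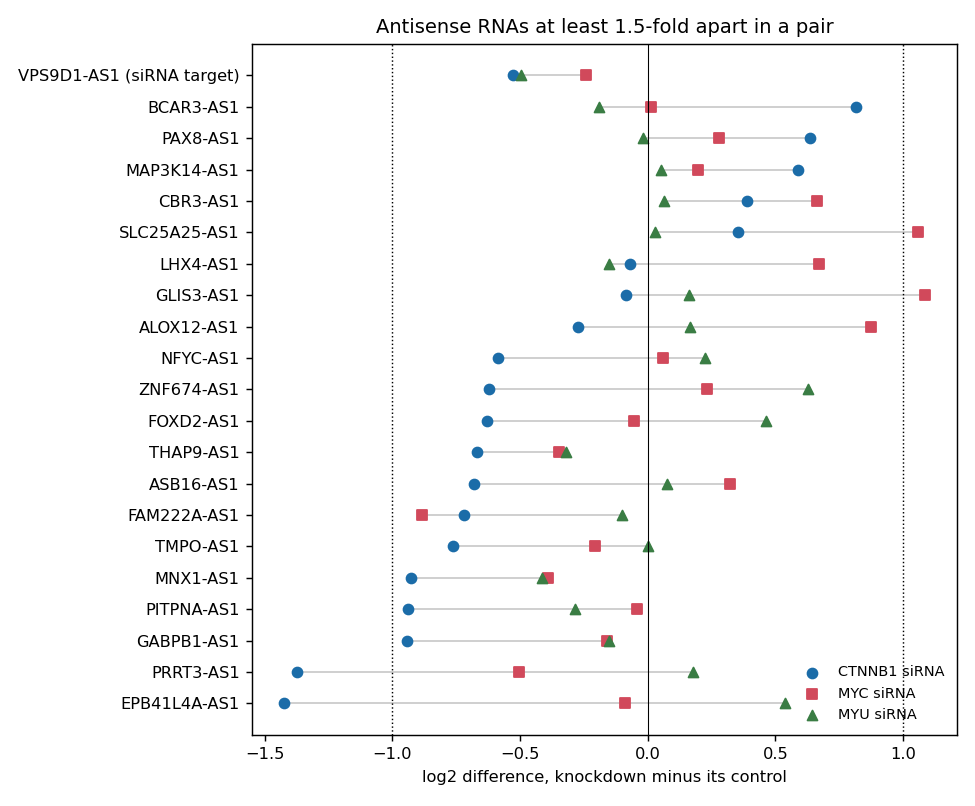
Log2 differences, knockdown minus its control, of the 20 antisense RNAs at least 1.5-fold apart in a pair, ordered by the CTNNB1 pair, with the targeted VPS9D1-AS1 on top; each point is 1 pair of arrays and dotted lines mark 2-fold. EPB41L4A-AS1 and PRRT3-AS1 lie beyond 2-fold in the CTNNB1 pair, and GLIS3-AS1 and SLC25A25-AS1 in the MYC pair.

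With MYC siRNA, 2 antisense RNAs were 2-fold higher (0.418%) and 0 lower, against 0.412% of all genes higher and 0.446% lower. GLIS3-AS1, opposite a zinc finger factor gene of the endocrine pancreas, stood at 0.54 on the knockdown array and -0.54 on its control array, a difference of 1.09 or 2.12-fold. SLC25A25-AS1, named after the gene of a mitochondrial ATP-magnesium and phosphate carrier, stood at 0.53 and -0.53, a difference of 1.06 or 2.08-fold. At 1.5-fold 5 were higher and 1 lower, against 2.15% and 3.63% of all genes. The others of these were ALOX12-AS1 (0.87), opposite a lipoxygenase gene, LHX4-AS1 (0.67), opposite a LIM homeobox gene, CBR3-AS1 (0.66), beside a carbonyl reductase gene, and, lower, FAM222A-AS1 (-0.88). The measured sense genes of these RNAs were near 0, with GLIS3 at 0.21, LHX4 at 0.11, CBR3 at 0.08 and ALOX12 at 0.02.

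In the CTNNB1 pair these RNAs took other values. GLIS3-AS1 stood there at -0.09, ALOX12-AS1 at -0.27 and LHX4-AS1 at -0.07, while SLC25A25-AS1 had 0.35 and CBR3-AS1 0.39. FAM222A-AS1 was lower in both pairs, at -0.72 and -0.88. MYC itself stood at -2.38 in the CTNNB1 pair and at -1.18 in the MYC pair. Both of these control arrays are titled siControl_1, and it is not known whether they are the same hybridisation, so these values may share a control. Within 1.5-fold, TSPEAR-AS2 (0.53), SVIL-AS1 (0.54), HMGN3-AS1 (0.43) and SH3BP5-AS1 (0.42) were also among the 10 highest in the MYC pair. PRRT3-AS1 (-0.51), PCNA-AS1 (-0.45), MNX1-AS1 (-0.39) and ARHGAP5-AS1 (-0.36) followed FAM222A-AS1 among the lowest.

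The hexamer CACGTG is the E-box that MYC binds together with MAX. It was looked for in RefSeq's promoter windows of assembly GRCh38.p14, which run from 250 bases before a gene's start to 50 bases from the start on; as a palindrome it reads alike on both strands. Of the 478 antisense RNAs, 367 have such a window, and 33 of these (8.99%) hold the hexamer, against 8.77% of all 27305 genes with a window. Of the 6 antisense RNAs at least 1.5-fold apart in the MYC pair 3 hold it, and these are printed 5′ to 3′ on the RNA's own strand, with the hexamer in capitals:
GLIS3-AS1 (chr9:3898396-3898695, plus strand): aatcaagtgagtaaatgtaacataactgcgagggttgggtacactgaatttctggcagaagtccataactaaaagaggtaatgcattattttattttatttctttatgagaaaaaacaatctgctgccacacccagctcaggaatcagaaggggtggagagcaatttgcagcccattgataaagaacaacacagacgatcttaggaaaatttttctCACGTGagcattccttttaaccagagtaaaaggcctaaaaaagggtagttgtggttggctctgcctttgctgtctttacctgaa
ALOX12-AS1 (chr17:7012285-7012584, minus strand): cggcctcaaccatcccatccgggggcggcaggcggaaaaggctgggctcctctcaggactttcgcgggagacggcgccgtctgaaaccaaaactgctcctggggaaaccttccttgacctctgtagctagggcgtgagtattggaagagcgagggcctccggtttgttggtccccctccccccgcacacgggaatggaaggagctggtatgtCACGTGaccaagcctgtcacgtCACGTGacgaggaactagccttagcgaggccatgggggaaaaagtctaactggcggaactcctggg
FAM222A-AS1 (chr12:109773438-109773737, minus strand): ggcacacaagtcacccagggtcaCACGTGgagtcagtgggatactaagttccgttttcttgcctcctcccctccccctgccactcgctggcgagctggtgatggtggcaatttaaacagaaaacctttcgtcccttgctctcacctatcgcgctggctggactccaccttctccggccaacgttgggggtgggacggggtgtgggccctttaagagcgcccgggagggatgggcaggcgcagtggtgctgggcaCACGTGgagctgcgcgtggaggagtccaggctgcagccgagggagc

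In GLIS3-AS1 the hexamer begins 34 bases before the start, and in ALOX12-AS1 there are 2, at 38 and 16 bases before it. FAM222A-AS1 also has 2, of which one begins 227 bases before the start and the other 4 bases after it. The window of GLIS3-AS1 lies within the span of GLIS3, and the other windows overlap no protein-coding gene's span. The 3 RNAs did not share a direction in the MYC pair, since FAM222A-AS1 was lower and the others were higher. The hexamer was not in the windows of SLC25A25-AS1, LHX4-AS1 and CBR3-AS1. These 6 RNAs were chosen by their values, so the count is a description of them. Of the 12 RNAs lower with CTNNB1 siRNA, 11 have a window, of which 1, that of FAM222A-AS1, holds CACGTG. The heptamer CTTTGAT, a form of the motif bound by the partners of beta-catenin, was in 0 of these 11 windows on either strand, against 3.18% of all genes with a window and 11 of the 367 antisense RNAs.

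With MYU siRNA, 0 of 478 antisense RNAs were 2-fold apart, against 0.155% of all genes (0.0608% higher and 0.0945% lower), and 1 was 1.5-fold higher and 0 lower, against 0.668% and 1.21%. This was ZNF674-AS1, beside a zinc finger gene, at 0.63 or 1.55-fold, with ZNF674 itself at 0.07. EPB41L4A-AS1 (0.54), FOXD2-AS1 (0.46) and ARHGAP5-AS1 (0.38) came next. Each of these 4 had a value below 0 in the CTNNB1 pair, where ARHGAP5-AS1 stood at -0.51. The lowest were WAC-AS1 (-0.46), named after an adaptor gene of histone H2B ubiquitination, MNX1-AS1 (-0.41), FBXL19-AS1 (-0.36) and TPT1-AS1 (-0.33). WAC-AS1 and TPT1-AS1 had been above 0 with CTNNB1 siRNA, at 0.37 and 0.56.

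VPS9D1-AS1, the target of this siRNA, gives the scale. Its value of -0.50, itself within 1.5-fold, was the lowest of the 479 antisense RNAs in the MYU pair when it is counted with them. It had -0.53 with CTNNB1 and -0.24 with MYC siRNA, in both cases the 15th lowest of the 479. Of the 478 others, 2 lay at or below -0.3 in all 3 pairs, MNX1-AS1 and THAP9-AS1, and 0 lay at or above 0.3 in all of them. MNX1-AS1 had values of -0.93 with CTNNB1, -0.39 with MYC and -0.41 with MYU siRNA, and THAP9-AS1 of -0.67, -0.35 and -0.32. In all, 458 of the 478 (95.8%) stayed within 1.5-fold in all 3 pairs, and only FAM222A-AS1 and ZNF674-AS1 passed 1.5-fold in more than 1 pair. These counts across pairs were not made for all genes, so they cannot be read as particular to antisense RNAs. Pair by pair, 16.2% of all genes passed 1.5-fold with CTNNB1, 5.79% with MYC and 1.88% with MYU siRNA. For the antisense RNAs these single-pair shares were 3.14%, 1.26% and 0.209%.

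The sense gene named in the symbol has a probe set for 313 of the 478 antisense RNAs, which gives 301 sense genes, 12 fewer because some have several antisense RNAs. These loci are paired by name, and both genes of each can be set side by side. At 97 of the 313 the antisense RNA could not be placed relative to the sense gene, and at 4 it lies apart. In the CTNNB1 pair the sense gene was at least 2-fold apart at 19 of the 313 loci (6.07%), beside 6.94% of all genes. At none of these 19 was the antisense RNA 2-fold apart, beside 2 of all 313 loci. Its absolute difference had a median of 0.09 there, against 1.51 for the sense genes, and 11 of the 19 had the sign of the sense gene.

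**Figure D3:**
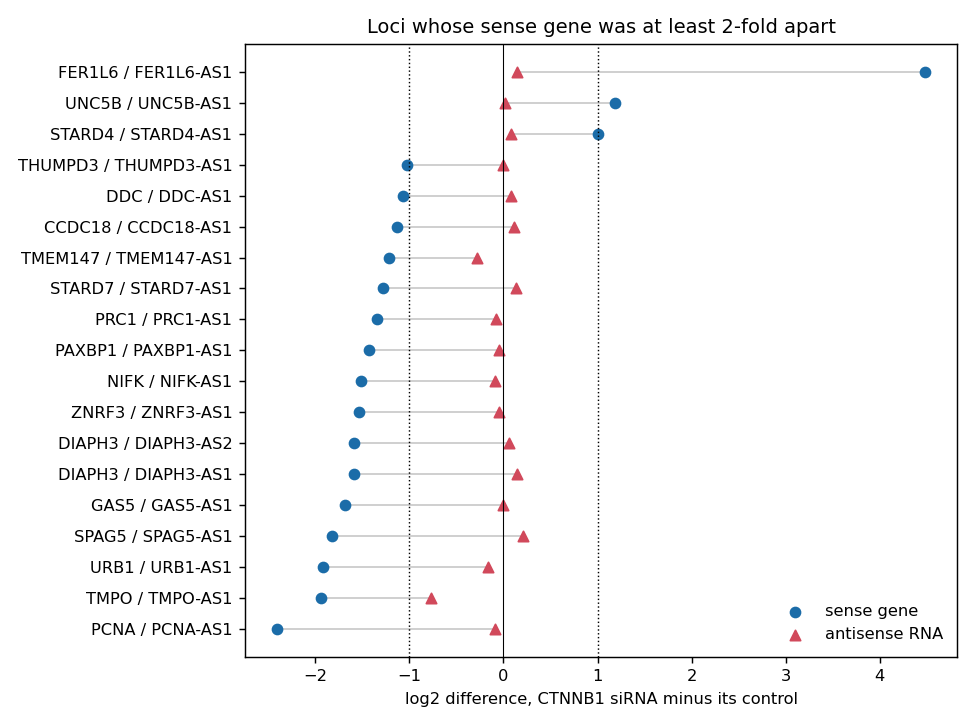
The 19 loci whose sense gene (circles) was at least 2-fold apart in the CTNNB1 pair, with the antisense RNA named after it (triangles). The horizontal axis is the log2 difference, CTNNB1 siRNA minus its control, and dotted lines mark 2-fold. The sense genes run from -2.40 to 4.48, and the antisense RNAs from -0.76 to 0.21.

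The sense genes of these loci have varied roles. PCNA, the sliding clamp of DNA polymerases, was lower by a log2 difference of -2.40, while PCNA-AS1 had a value of -0.09. SPAG5, a mitotic spindle gene, stood at -1.82 and SPAG5-AS1 at 0.21. PRC1, which bundles microtubules of the central spindle, stood at -1.34 and PRC1-AS1 at -0.08. DIAPH3, a formin gene of actin assembly, stood at -1.59, with DIAPH3-AS1 at 0.14 and DIAPH3-AS2 at 0.06. CCDC18 had a value of -1.13 and CCDC18-AS1, which lies apart from it, of 0.11. In each of these loci the sense value lay far from 0 and the antisense value within the range of the yardstick families.

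TMPO stood at -1.94 and TMPO-AS1 at -0.76, the sole antisense RNA of the 19 loci past 1.5-fold. TMEM147-AS1, at -0.28, also lay below the range of the yardstick families, whose lower bound was -0.23. In the MYC pair TMPO had -0.94 and TMPO-AS1 -0.21, and with MYU siRNA they had -0.45 and 0.00.

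Other sense genes act in ribosome production or on other RNAs. URB1, needed for the large ribosomal subunit, stood at -1.91 and URB1-AS1 at -0.16. NIFK, a nucleolar protein gene, stood at -1.51 and NIFK-AS1 at -0.09. GAS5, itself a non-coding host of small nucleolar RNAs, stood at -1.68 and GAS5-AS1 at 0.00. THUMPD3, a methyltransferase gene for transfer RNA, stood at -1.02 and THUMPD3-AS1 at 0.00.

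Among the other loci, ZNRF3, a ubiquitin ligase that removes Wnt receptors, stood at -1.53 and ZNRF3-AS1 at -0.05. PAXBP1 had -1.43 beside -0.04 for PAXBP1-AS1, and DDC, the decarboxylase gene of dopamine and serotonin synthesis, had -1.07 beside 0.08 for DDC-AS1. STARD7, a lipid transfer gene, stood at -1.27 and STARD7-AS1 at 0.14, and TMEM147 at -1.22 and TMEM147-AS1 at -0.28. The sense gene was higher at 3 loci. FER1L6 of the ferlin family stood at 4.48 and FER1L6-AS1 at 0.15. UNC5B, a netrin receptor gene, stood at 1.19 and UNC5B-AS1 at 0.01. STARD4, a sterol carrier gene, lay just past 2-fold and STARD4-AS1 at 0.08.

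At 1.5-fold the sense gene was apart at 45 of the 313 loci in the CTNNB1 pair (14.4%, beside 16.2% of all genes). TMPO-AS1 was the only antisense RNA of these 45 that passed 1.5-fold too, beside 11 at all 313 loci. In the MYC pair 17 loci had a sense gene 1.5-fold apart and 0 had one 2-fold apart, beside 5.79% and 0.857% of all genes. The antisense values of these 17 ran from -0.45 to 0.14, and 9 of the 17 had the sign of the sense gene. The lowest was PCNA-AS1 (-0.45), with PCNA at -0.89. SPAG5 (-0.86), RNF213 (-0.83), CFAP44 (0.97), TAPT1 (0.83) and ARRDC3 (0.82) had antisense RNAs between -0.05 and 0.08.

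In the MYU pair 6 loci had a sense gene 1.5-fold apart, beside 1.88% of all genes. MAP3K20, a stress kinase gene, stood at -1.15 and MAP3K20-AS1 at -0.03. TMEM147 had -0.73, CFAP418 -0.64, the histone demethylase gene KDM4A 0.77, FER1L6 0.68 and PDCD4 0.61, while their antisense RNAs ran from -0.11 to 0.05. Conversely, 11 antisense RNAs with a measured sense gene were 1.5-fold apart with CTNNB1, 4 with MYC and 1 with MYU siRNA. TMPO-AS1 was the sole case in which the sense gene passed 1.5-fold as well. Over all 313 loci the sense gene passed 1.5-fold at 14.4%, 5.43% and 1.92% in the same order. With so few antisense RNAs past 1.5-fold, these counts cannot show whether both strands move together.

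**Figure D4:**
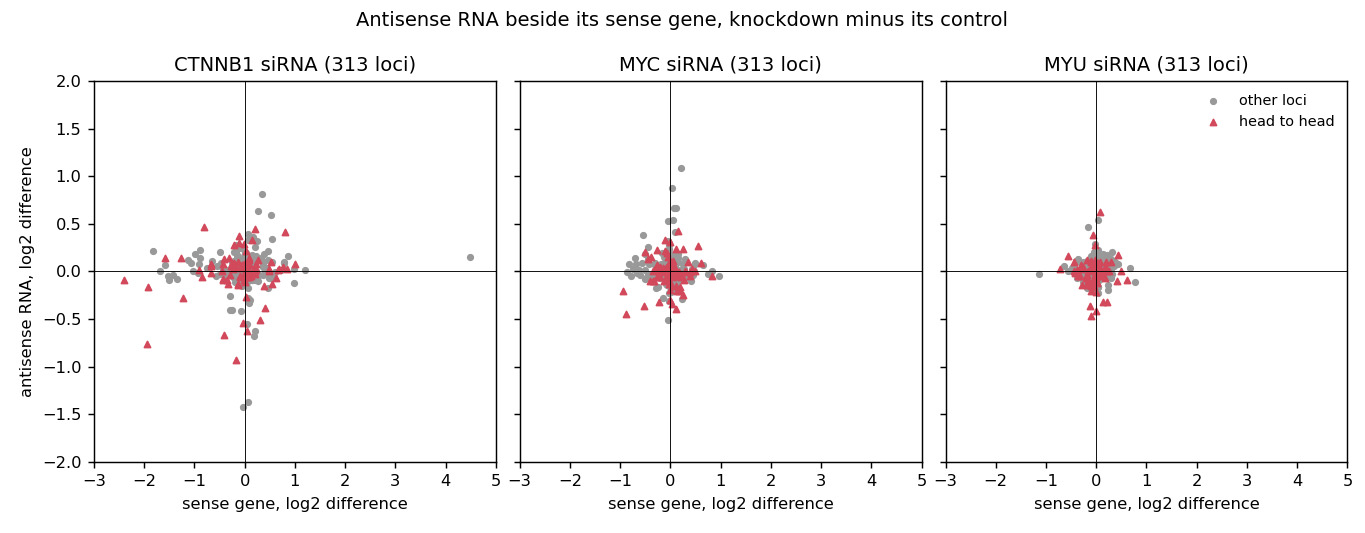
Log2 difference, knockdown minus its control, of the antisense RNA (vertical axis) against that of its sense gene (horizontal axis) at 313 loci in each pair; triangles mark loci whose starts lie within 2000 bases of each other on opposite strands. Points spread along the 2 axes, and TMPO with its antisense RNA, at -1.94 and -0.76, lies alone in the lower left of the CTNNB1 panel.

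Across the 313 loci Pearson's r between both differences was 0.08 with CTNNB1, 0.04 with MYC and 0.05 with MYU siRNA. These are descriptions across loci measured on the same arrays, and a few loci share a sense gene. The CTNNB1 and MYC pairs may also share a control. Both differences had the same sign at 156, 138 and 172 of the 313 loci. From RefSeq's starts, 323 antisense RNAs could be placed relative to the sense gene. In 154 the starts lay within 2000 bases on opposite strands, here called head to head. Of these, 76 start apart and face away from the sense gene, and in 78 the 5′ ends overlap. Another 161 overlap the sense gene otherwise and 8 lie apart. In the CTNNB1 pair 5 of the 154 head-to-head RNAs were 1.5-fold lower and 0 higher, and of the 161 overlapping ones 4 were lower and 3 higher, beside 12 lower and 3 higher of all 478 antisense RNAs and 9.8% and 6.44% of all genes. The split between arrangements was not tested. At the 93 head-to-head loci with both genes measured r was 0.17, 0.17 and 0.00 in the same order, and at 119 overlapping loci 0.10, 0.01 and 0.07. Spearman's rho, taken on ranks, was 0.07, -0.03 and 0.11 at the 93 head-to-head loci. Both differences had the same sign at 46, 37 and 52 of these 93. All these correlations are weak.

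At the head-to-head loci of URB1 and ZNF674 the stretch between the starts is short. One strand stood far from 0 there in the CTNNB1 pair while the other did not. ZNF674-AS1 was at -0.62 and ZNF674 at 0.05, and at URB1 the sense gene was the lower one. The whole stretch from the sense gene's outermost start to that of the antisense RNA is printed 5′ to 3′ in the direction of the antisense RNA, with CG dinucleotides in capitals, from the same RefSeq windows of GRCh38.p14:
URB1-AS1 (chr21:32393013-32393132, plus strand): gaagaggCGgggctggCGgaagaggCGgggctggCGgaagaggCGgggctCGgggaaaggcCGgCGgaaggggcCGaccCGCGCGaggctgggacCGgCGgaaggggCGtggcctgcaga
ZNF674-AS1 (chrX:46545422-46545489, plus strand): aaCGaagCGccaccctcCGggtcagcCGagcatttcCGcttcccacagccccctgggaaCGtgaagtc

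These stretches are 120 and 68 bases long, and each lies outside the span of the sense gene. They hold 15 and 6 CG dinucleotides, or 12.5 and 8.82 per 100 bases. Over all 35116 promoter windows the median was 4.67 per 100 bases, with 95% of windows at or below 14.0. Neither stretch holds CACGTG. The loci were chosen after their values were seen, to show both strands of a shared start region. They are examples and not the only such loci. The starts of DIAPH3 (-1.59) and DIAPH3-AS1 (0.14) lie 114 bases apart, and those of FMR1 (-0.84) and FMR1-AS1 (-0.06) 102 bases.

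A list of 81 symbols was drawn up for antisense RNAs with a described function, and 37 of them matched a platform symbol exactly. The listed symbols were not checked as gene names, so some of the others, such as CYTOR-AS1 and HCP5-AS1, may name no antisense RNA. RNAs listed under another symbol were missed, among them BDNF-AS, STARD13-AS and WT1-AS, which the platform lists without a digit. In the CTNNB1 pair 2 of the 37 were 1.5-fold lower, MNX1-AS1 and TMPO-AS1, and 0 higher, beside 9.8% and 6.44% of all genes, and 29 lay within 0.2 of 0. In the MYC pair CBR3-AS1 was 1.5-fold higher and 0 were lower, beside 2.15% and 3.63% of all genes, and in the MYU pair 0 of 37 passed 1.5-fold, beside 1.88%. Medians were -0.04, -0.02 and 0.04. CDKN2B-AS1, which recruits Polycomb complexes to the neighbouring cell cycle inhibitor genes, had values of 0.07 with CTNNB1, -0.03 with MYC and -0.03 with MYU siRNA. FGD5-AS1 had -0.20, 0.06 and -0.12. GAS6-AS1 had -0.55, -0.20 and 0.21, USP3-AS1 -0.41, -0.13 and 0.09, and MCM3AP-AS1 -0.41, -0.28 and 0.13.

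A second list held 8 antisense RNAs whose sense gene was among chosen symbols of gut transcription factors, Wnt genes and replication or mitosis genes. It does not cover all such loci, since ZNRF3-AS1, SPAG5-AS1 and PRC1-AS1 are not on it. TMPO-AS1 and FOXD2-AS1 were 1.5-fold lower in the CTNNB1 pair, beside 9.8% of all genes, and 0 of the 8 passed 1.5-fold in the others, beside 5.79% with MYC and 1.88% with MYU siRNA. LEF1-AS1, opposite the gene of a nuclear partner of beta-catenin, had values of 0.05, 0.05 and 0.04. FZD10-AS1, beside a Wnt receptor gene, had 0.01, 0.01 and -0.01, and KLF3-AS1 had 0.03, -0.03 and -0.02. LRP4-AS1 had 0.14 with both CTNNB1 and MYC siRNA, while LRP4, a co-receptor gene, stood at -0.89 and -0.70.

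Most antisense RNAs rest on 1 probe set, and 20 have several. Between these the median standard deviation was 0.09 with CTNNB1, 0.09 with MYC and 0.07 with MYU siRNA. DHRS4-AS1 disagreed most in the CTNNB1 pair, with -0.07 and -1.01, and its locus has near-identical gene copies. C10orf95-AS1 had -0.76 and -0.18 there, and GAS6-AS1 had -0.34 and -0.75, with -0.13 and 0.54 in the MYU pair. For 16 sense names the platform lists several antisense RNAs, 34 in all. These ran from -0.30 to 0.28 with CTNNB1, from -0.27 to 0.26 with MYC and from -0.19 to 0.16 with MYU siRNA, all within 1.5-fold.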

How the data were processed

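Total RNA of 6 LS180 samples was prepared with TRIsure, biotin-labelled and hybridised to Affymetrix arrays, per the labels. Background correction, normalization and probe summarisation are unknown, as neither the labels nor the table state them. The authors deposited log2 expression values centred within each pair, read from the values: both arrays of a pair sum to 0 within 1e-06 for every probe set. The log base is assumed to be 2.

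Of 44629 probe sets, 15835 have 1 gene symbol in the platform's annotation and 28794 are unnamed here. A gene's value is the mean of its probe sets, as knockdown minus its own control. All 478 antisense RNAs, from 503 probe sets, are in RefSeq's gene table (GRCh38.p14), 472 as lncRNA and 6 as antisense RNA. Named RNAs are those 2-fold apart, the 10 highest and 10 lowest of each pair, those with a sense gene 2-fold apart, and up to 10 members of each list. The members, the lists and the 2000-base limit were chosen with earlier results of these data known. Calculations were tested on simulated data. Python 3.11.15, numpy 2.4.6, pandas 2.3.3 and matplotlib 3.10.9 were used.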

Additional observations from a re-analysis of the deposited data

Results flagged for a closer look

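ZNF674-AS1 was singled out because it was 1.5-fold apart in opposite directions in 2 pairs, at -0.62 with CTNNB1 siRNA and 0.63 with MYU siRNA. Each value comes from 1 pair of arrays with a control of its own, and the difference between them was not tested.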

How the results depend on the processing

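At 1.5-fold in place of 2-fold, 3 antisense RNAs were higher and 12 lower in the CTNNB1 pair, 5 higher and 1 lower in the MYC pair, and 1 higher in the MYU pair. With Spearman's rho in place of Pearson's r, the correlation of antisense RNA and sense gene was -0.0455 with MYC and 0.17 with MYU siRNA, and r over head-to-head loci alone was 0.17 in the MYC pair; the cause was not tested. Centring each array on its median and current symbols left the counts and medians as they were within the limits set. With each gene represented by its probe set closest to 0, 213 of 216 values of named RNAs moved by less than the standard deviation of the yardstick families and 3 moved by more. These were the values of GAS6-AS1, which became -0.34 with CTNNB1, -0.10 with MYC and, with its sign turned from 0.21, -0.13 with MYU siRNA. The 4 loci lying apart with both genes measured were too few for a correlation of their own. No paired analysis was possible because each group has 1 array. No array could be left out, for the same reason, and signal over background is unknown since levels are gone.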

Other observations

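The platform also lists 9 antisense RNAs whose symbol ends in -AS without a digit. BACE1-AS, opposite the beta-secretase gene, had the lowest value of these in the CTNNB1 pair, at -0.33, with 0.02 in the MYC and -0.05 in the MYU pair. The others included BDNF-AS, HOXA11-AS and WT1-AS. Over all 9 the values ran from -0.33 to 0.10 in the CTNNB1 pair, from -0.13 to 0.09 in the MYC pair and from -0.10 to 0.07 in the MYU pair. None was 1.5-fold apart, and 95.8% of the antisense RNAs with a digit also stayed within 1.5-fold in every pair.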
